A study of Homo sapiens with 4 samples.

Results

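Of the 58201 gene probes on the array, 13638 carried a name of the long intergenic noncoding RNA type and are described here. A probe was a member when its name in the array design began with LINC, XLOC_ or lnc-, which gave 1673 LINC probes for 843 names, 1246 XLOC_ probes for 945 names and 10719 lnc- probes for 8765 names, 10553 names in all. The rule uses names alone and no measured value. Names ending in -AS and a number, the antisense class, were to be left out, but none began with those prefixes. RNA came from MDS-L cells, a human line from a patient with myelodysplastic syndrome, and from MDS-L/CDA cells, a derivative resistant to 5-azacytidine (AZA) that had been made earlier by transducing the cytidine deaminase gene CDA. Whether MDS-L/CDA is a single clone is not given in the sources used here. Each line was cultured for 72 h with vehicle (0.1% DMSO) or with 1 μM AZA, and each of the 4 conditions was hybridised to 1 one-colour Agilent array on a shared slide. With 1 array per condition there was no replicate, so no value below has an error or a test, and every comparison is between single arrays.

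The labels of 2 arrays contradict themselves: the treatment field of the MDS-L AZA array names DMSO, and that of the MDS-L/CDA vehicle array names AZA. Titles, descriptions and source names gave the same treatment for each array and were used. The titles also give the dose as 1 mM, whereas the source names and descriptions give the 1 μM used here. The probe for CDA itself stayed below background throughout, so it does not check which line is which. DNMT1, the maintenance DNA methyltransferase, had scaled signals of 846 and 676 in MDS-L and 896 and 998 in MDS-L/CDA, in vehicle and AZA respectively. Of 10 markers of myeloid progenitors, 9 were well above background on every array, and the remaining one, MPO, on none. Of 11 markers of B cells, T cells, fibroblasts and epithelium, 2 to 3 were well above background per array. The T cell gene CD3D was detected only in MDS-L with AZA, at 447, while MS4A1, CD3E and all fibroblast and epithelial markers stayed below background on all 4 arrays.

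Long intergenic noncoding RNAs are transcripts from stretches between protein-coding genes that do not encode a known protein. Many are made at low levels and in few cell types, and the better known ones act as scaffolds for chromatin regulators, bind microRNAs or RNA-binding proteins, or affect the gene beside them through the act of transcription. LINC symbols belong to curated genes, whereas XLOC_ and lnc- names come from catalogues of assembled transcripts, and a lnc- name carries the symbol of a neighbouring gene. AZA is built into nucleic acid in place of cytidine and traps DNMT1, so that DNA methylation is lost as cells divide. Cytidine deaminase inactivates the drug.

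Each probe is a 60-base oligonucleotide and every member had 1 spot per array. The probes that carry the main differences are printed here as the array design gives them, 5′ to 3′, with CpG dinucleotides in capitals. The leading 5 members that were brighter with AZA in MDS-L come first, then a member that was brighter with AZA in both lines, both members that went opposite ways in the lines, and the leading differences between the lines.
lnc-LRRC17-1: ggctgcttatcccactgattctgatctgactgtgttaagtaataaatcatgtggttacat
XLOC_l2_015849: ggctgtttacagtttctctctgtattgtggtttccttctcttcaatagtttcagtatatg
lnc-CDKN1C-2: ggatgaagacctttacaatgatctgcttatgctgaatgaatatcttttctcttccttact
LINC00892: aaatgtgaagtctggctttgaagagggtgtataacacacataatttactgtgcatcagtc
lnc-PPP1R32-1: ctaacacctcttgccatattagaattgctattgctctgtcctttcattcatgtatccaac
lnc-RASL10A-1: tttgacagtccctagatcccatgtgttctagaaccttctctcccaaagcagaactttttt
lnc-EPHA1-1: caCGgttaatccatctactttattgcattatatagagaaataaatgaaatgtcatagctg
lnc-PCF11-1: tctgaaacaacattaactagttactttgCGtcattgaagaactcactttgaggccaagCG
LINC01420: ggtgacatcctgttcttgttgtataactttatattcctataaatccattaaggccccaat
lnc-LPPR5.1-1: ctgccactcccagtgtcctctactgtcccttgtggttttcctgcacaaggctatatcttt

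Most members gave no signal above background in these cells. Signals are given as scaled signal, the spot's background-subtracted intensity divided by the array's 75th percentile over all gene probes and multiplied by 100. A probe was taken as detected where the scanner software flagged it as well above background. Members were detected at 12.1% (1646 probes) in MDS-L with vehicle, 13.1% (1781) in MDS-L with AZA, 10.1% (1382) in MDS-L/CDA with vehicle and 9.91% (1352) in MDS-L/CDA with AZA. The 44547 remaining probes were detected at 42.2%, 43.7%, 39.5% and 39.6% in the same order, and the antisense class lay between, at 24.0% to 28.9%. Within the members the 3 name classes were close to each other, with XLOC_ at 12.8% to 16.3%, LINC at 11.2% to 15.7% and lnc- at 9.32% to 12.3%. The 3 classes did not move alike between arrays: LINC detection was 12.9% with vehicle and 15.7% with AZA in MDS-L, whereas XLOC_ was at 16.3% on both.

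**Figure D1:**
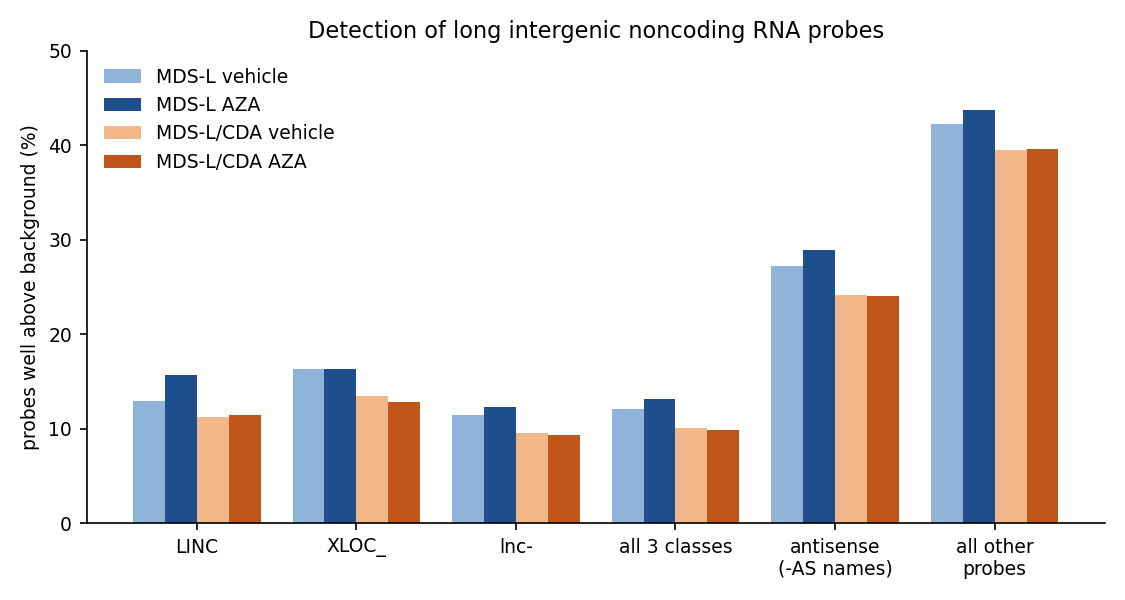
Share of probes well above background (percent) on each of the 4 arrays, for LINC, XLOC_ and lnc- members, antisense probes and all remaining probes. The bars are single arrays with no error. Member classes lie between 9.32% and 16.3%, and the remaining probes between 39.5% and 43.7%.

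Across the 4 arrays, 11578 members (84.9%) were detected on none, against 54.0% of remaining probes, and 1154 (8.46%) on all, against 37.4%. Of the 906 members detected on 1 to 3 arrays, 264 were seen only in MDS-L with AZA. That was more than the 135 seen only in MDS-L with vehicle, the 38 seen only in MDS-L/CDA with vehicle and the 24 seen only in MDS-L/CDA with AZA. Single-array counts of the remaining probes are not given here, so this order is not shown to be particular to members. Taking each line by itself, 348 members were detected with AZA but not vehicle in MDS-L and 213 the other way, whereas in MDS-L/CDA these counts were 153 and 183. The remaining probes gave 1463 and 789 in MDS-L and 760 and 695 in MDS-L/CDA. Both MDS-L/CDA arrays were dimmer, with a 75th percentile intensity of 40.8 and 37.3 against 52.5 and 52.9 for MDS-L. The lowest scaled signal that counted as detected was correspondingly higher on them, at 27.2 and 29.6 against 19 on both MDS-L arrays. The part that this brightness played in the detection counts was not tested. In bulk RNA, fewer cells that make a transcript and less of it per cell cannot be told apart.

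Detected members were also dimmer than other detected probes. Their median scaled signal was 58.6 to 87.3 depending on the array, compared with 328 to 480 for the remaining probes. A few members were among the bright probes of the array. The brightest were lnc-WWC2-1, at 126000, 117000, 148000 and 135000 in MDS-L vehicle, MDS-L AZA, MDS-L/CDA vehicle and MDS-L/CDA AZA, and XLOC_l2_005557, at 85800, 93500, 94400 and 96000. Values are given in this order of arrays from here on. lnc-C20orf96-1, lnc-TPSAB1-1 and XLOC_l2_008285 followed, with signals from 35300 to 74600 over the 4 arrays. The probes of lnc-WWC2-1, lnc-TPSAB1-1 and lnc-C20orf96-1 have 85.0%, 83.3% and 70.0% GC, against a median of 43.3% over all members. Those of XLOC_l2_005557 and XLOC_l2_008285 have 41.7% and 48.3%. The part that base content played in these signals was not tested. No member spot was saturated.

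For the effect of AZA, a member was counted when the brighter array detected it and the ratio of scaled signals was at least 2. Where the dimmer array was below background, its value was replaced by the higher of its own signal and the lowest detected signal of that array, and the ratio is given as "at least". In MDS-L, 139 members (1.02%; 134 names) were higher with AZA and 80 (0.587%; 79 names) were lower. The background is 2.50% of all analysed probes higher and 2.35% lower. Members were dimmer than other probes, and dim probes can seldom pass this rule, so the remaining probes were also weighted to the members' distribution over 10 bins of mean signal. At like signal, 1.95% of the remaining probes were higher and 1.02% lower. The members' counts were thus below the background in both directions, before and after weighting. By the study's rule, the ratio and the Z score had each to be at least 2. It gave 91 members (0.667%) higher and 31 (0.227%) lower, against 1.48% and 0.985% of all analysed probes. At like signal, 1.29% of the remaining probes were higher and 0.281% lower by this rule.

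**Figure D2:**
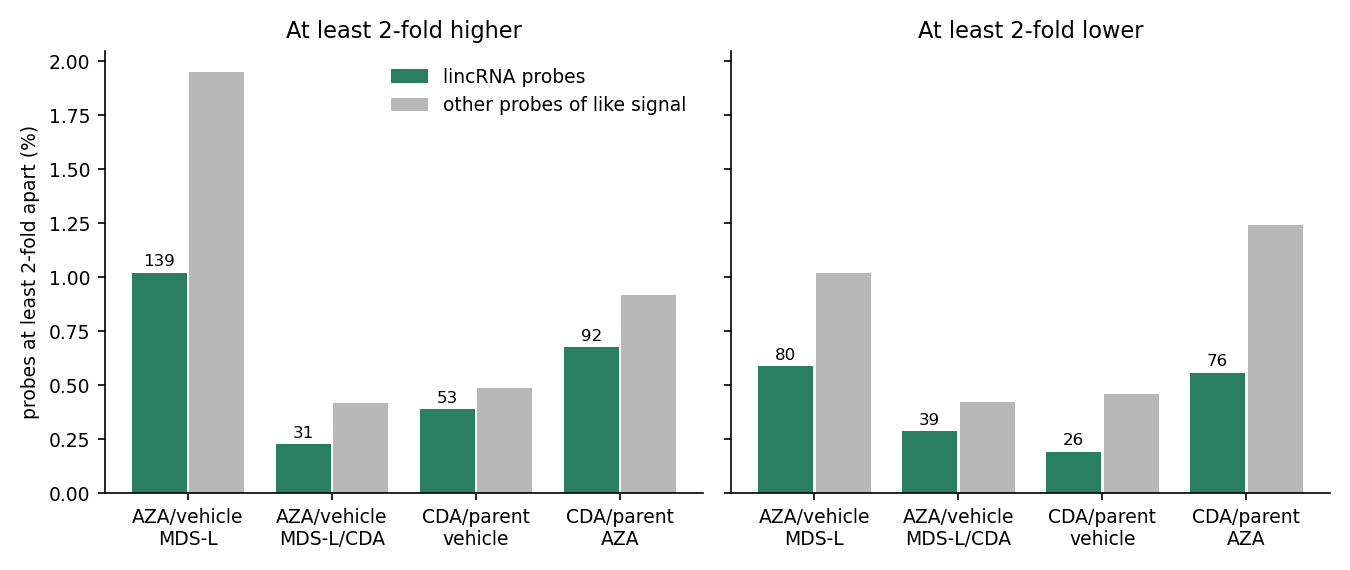
Share of probes (percent) at least 2-fold higher (left) or at least 2-fold lower (right) in each of the 4 comparisons, for members (green, with their number above the bar) and for remaining probes weighted to the members' signal (grey), with no error; parent is MDS-L. The members' bar is below that of remaining probes of like signal in every comparison and direction, and the highest member share is 1.02% for AZA against vehicle in MDS-L.

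How the increases and decreases split depended on the scaling of the arrays. With the 75th percentile set equal, increases were 63.5% of the members counted in MDS-L. They were 64.6% with no scaling, 45.3% after quantile normalisation of the 4 arrays, 43.2% after quantile normalisation of the 2 MDS-L arrays alone, 80.6% with the percentile taken over detected probes and 11.8% with array medians set equal. Equal medians moved the median log2 ratio of all measured probes in MDS-L from -0.124 to -0.67. The number of increases and its balance with decreases can therefore be read only relative to a scaling. Under all 5 other scalings, 49 of the 139 increases (35.3%) and 52 of the 80 decreases (65.0%) still passed. The leading 10 increases and 6 decreases named below passed under each of them.

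**Figure D3:**
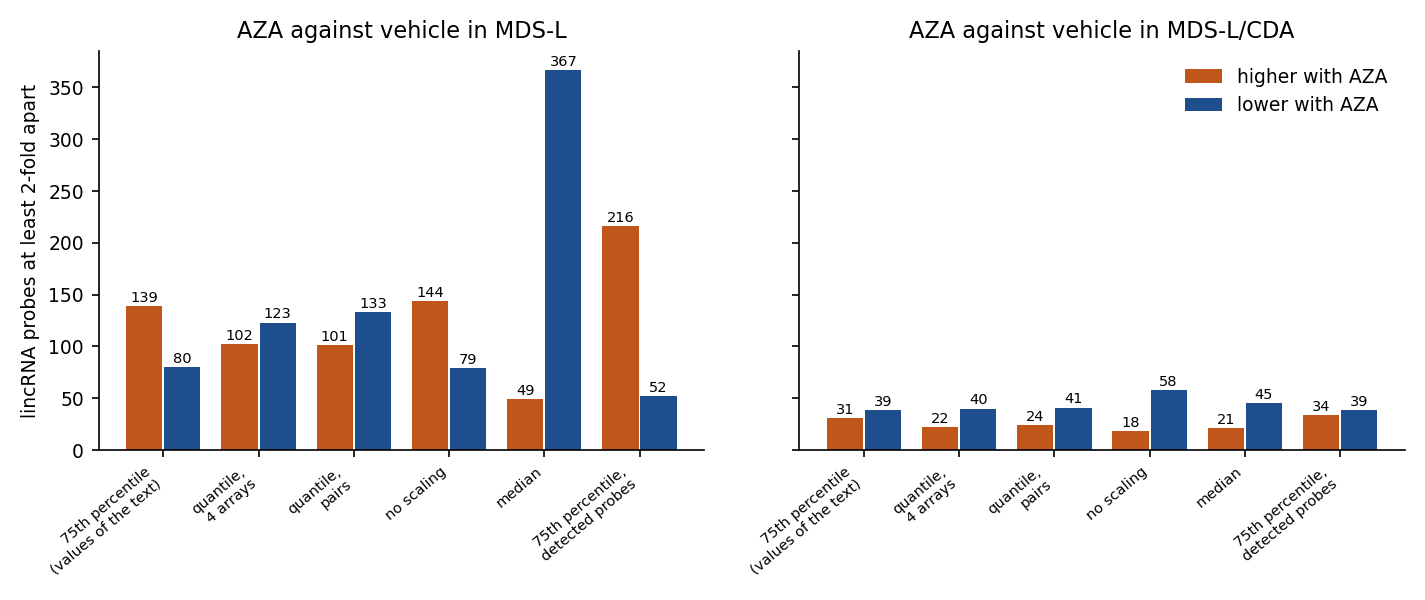
Number of members at least 2-fold higher (orange) or lower (blue) with AZA in MDS-L (left) and MDS-L/CDA (right) under the 75th percentile scaling and the 5 other scalings. Increases with AZA in MDS-L range from 49 with equal medians to 216 with the 75th percentile of detected probes, and decreases from 52 to 367.

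Of the 139 members higher with AZA in MDS-L, 63 were detected on both MDS-L arrays and 76 only with AZA, so that most increases are known only as lower bounds. Of the 139, 45 were detected on no other array than MDS-L with AZA, and 47 were detected on all 4 arrays. LINC members were counted as higher at 2.27% (38 of 1673), lnc- members at 0.868% (93) and XLOC_ members at 0.642% (8), beside 2.49% of antisense probes and 2.95% of remaining probes. The same classes gave 12, 56 and 12 decreases, or 0.717% of LINC, 0.522% of lnc- and 0.963% of XLOC_ members. The median log2 ratio over the measured members was 0.17 for LINC (281 probes), 0.02 for lnc- (1482) and -0.14 for XLOC_ (231), with -0.14 for the remaining probes.

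The largest increase belonged to lnc-LRRC17-1, whose probe lies at chr7:102629234-102629293 (hg19, plus strand). Its scaled signal was 9.63 in MDS-L with vehicle and 1050 with AZA, a ratio of at least 55.4, and 5.88 and 9.09 in MDS-L/CDA. The MDS-L AZA array was the only one on which it was detected. XLOC_l2_015849 (chrX:152661129-152661188, minus strand) showed the same pattern, with 4.39, 566, 6.19 and 6.64, at least 29.8-fold higher with AZA in MDS-L. lnc-PPP1R32-1 (chr11:61274039-61274098) was at 4.82, 228, 6.71 and 6.20, at least 12.0-fold higher. LINC01300, on chromosome 8, was at 5.19, 195, 7.35 and 7.42, at least 10.3-fold higher. LINC01082 (chr16:86233230-86233289) was at 13.6, 150, 10.2 and 8.94, at least 7.92-fold higher. LINC01413 (chr15:57617077-57617136) was at 4.69, 141, 6.82 and 6.09, at least 7.42-fold higher, and its second probe was below background on all arrays. None of these 6 was detected on any other array than MDS-L with AZA, and each such value rests on 1 spot.

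In the other leading members the AZA-treated MDS-L/CDA cells gave some signal too. lnc-CDKN1C-2 (chr11:2861405-2861464, minus strand) was at 8.47 and 551 in MDS-L, at least 29.0-fold higher, and at 6.42 and 47.5 in MDS-L/CDA, at least 1.75-fold higher. LINC00892 (chrX:135724494-135724553) was at 18.8 and 311 in MDS-L, at least 16.4-fold higher, and at 11.6 and 35.6 in MDS-L/CDA, at least 1.31-fold higher. A second LINC00892 probe next to it was at 4.56, 120, 10.2 and 17.5, at least 6.33-fold higher in MDS-L. lnc-ACTRT2-1 (chr1:2734262-2734321) was at 7.82, 158, 13.2 and 46.7, at least 8.33-fold higher in MDS-L and at least 1.72-fold in MDS-L/CDA. The 10th, lnc-RASL10A-1 (chr22:29712840-29712899, minus strand), was detected everywhere, at 38.7, 193, 32.4 and 73.1, which are increases of 5.0-fold and 2.25-fold.

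**Figure D4:**
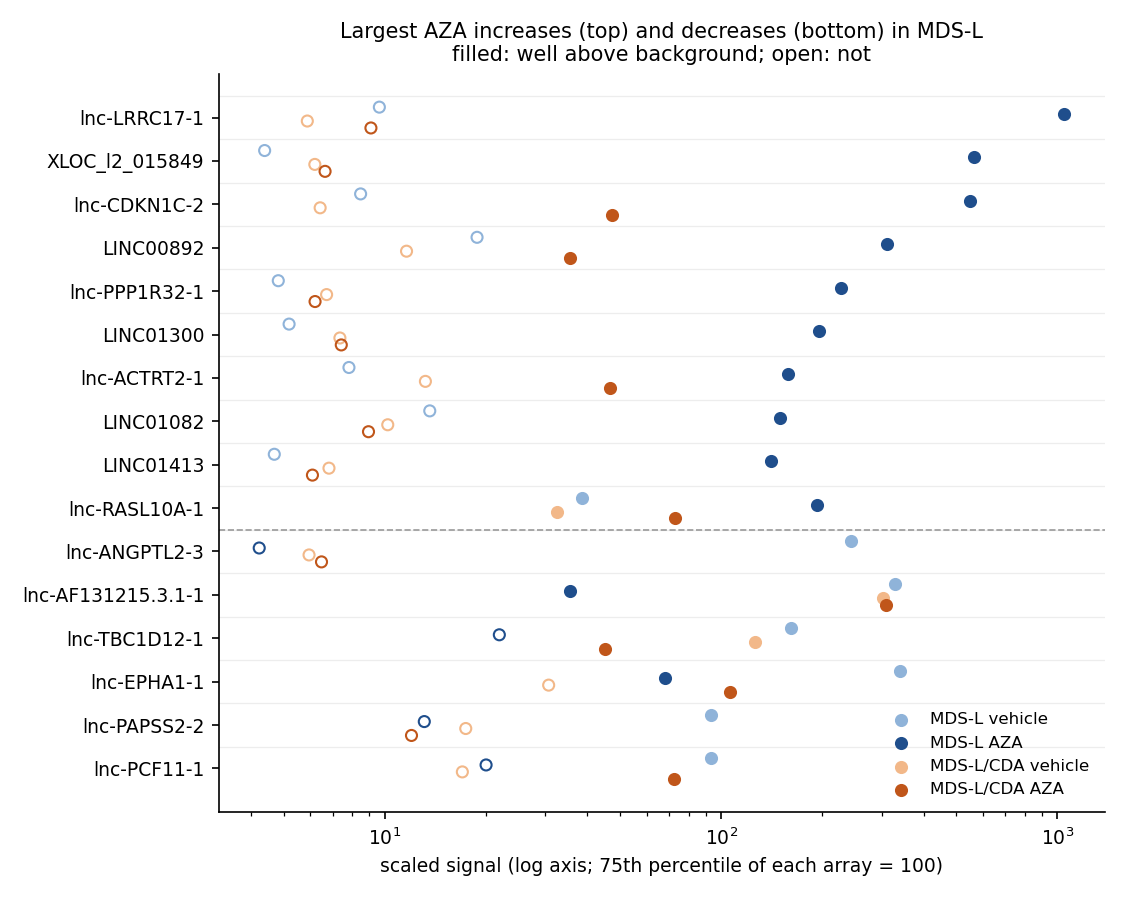
Scaled signal (log axis) of the 10 leading members higher with AZA in MDS-L and the 6 leading members lower with AZA, on each of the 4 arrays. Each point is 1 probe on 1 array, open points are not well above background. For lnc-LRRC17-1 the MDS-L AZA point is at 1050 and the other 3 lie below 10, and for lnc-ANGPTL2-3 the MDS-L vehicle point is at 243 and the other 3 lie below 7.

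Of the 134 names with an increase, 54 had several probes. Of their 114 other probes, 72 were below background on both MDS-L arrays. A further 34 had a log2 ratio of the same sign as the increase, and 8 had the opposite sign. More than 1 probe was among the increases for 4 of the 54 names. lnc-ARRDC3-1 had 3, at 11.4 and 46.0, 5.51 and 68.6, and 12.8 and 81.0 with vehicle and AZA in MDS-L, which are at least 2.42-, 3.61- and 4.27-fold. LINC01140 had 2, at 3.98 and 43.5 and at 4.13 and 80.2, and LINC00323 and LINC00892 also had 2 each. In these loci separate oligonucleotides gave the increase, although on the same pair of arrays. lnc-ARRDC3-1, LINC01140 and LINC00323 were named after their values were seen.

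Decreases in MDS-L were more often between detected signals, since 60 of the 80 were detected on both MDS-L arrays and 52 on all 4. lnc-ANGPTL2-3 (chr9:129249245-129249304) was at 243 with vehicle and 4.23 with AZA, at least 12.8-fold lower, and at 5.95 and 6.48 in MDS-L/CDA. lnc-PAPSS2-2 was at 93.6, 13.1, 17.4 and 12.0, at least 4.92-fold lower. These 2 of the leading 6 were detected in MDS-L with vehicle and on no other array. lnc-AF131215.3.1-1, on chromosome 8, was at 330, 35.5, 304 and 309, which is 9.3-fold lower in MDS-L and a ratio of 1.02 in MDS-L/CDA. lnc-TBC1D12-1 (chr10:96337322-96337381) was at 161, 21.9, 126 and 45.2, at least 7.34-fold lower in MDS-L and 2.79-fold lower in MDS-L/CDA. Its second probe was 2.14-fold lower in MDS-L, from 136 to 63.5, but at 141 and 212 in MDS-L/CDA, so the probes of this locus disagreed in the resistant line. The last 2 leading decreases, lnc-EPHA1-1 and lnc-PCF11-1, were higher with AZA in MDS-L/CDA and are described with the comparison of both lines.

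In MDS-L/CDA far fewer members passed. With AZA, 31 (0.227%) were higher and 39 (0.286%) lower, against 0.846% and 1.09% of all analysed probes and 0.417% and 0.421% of remaining probes of like signal. By the ratio with the Z score, 32 (0.235%) were higher and 45 (0.330%) lower, against 0.675% and 1.01% of all analysed probes. Remaining probes of like signal gave 0.338% and 0.425% by that rule. Increases were 44.3% of the members that passed the 2-fold rule, and 23.7% to 46.6% under the other scalings. Over the members detected on both arrays of a line, the log2 ratios had an SD of 0.58 in MDS-L (1433 probes) and 0.45 in MDS-L/CDA (1199 probes), and 8.58% and 3.92% were at least 2-fold apart. Remaining probes of like signal gave SDs of 0.73 and 0.51 and shares of 12.6% and 5.61%. A difference between the lines in their response was not tested, because there was 1 array per condition.

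The largest increase in MDS-L/CDA was lnc-SMPD2-1, at 31.1 and 67.1 in MDS-L, 2.15-fold higher, and at 23.6, below background, in MDS-L/CDA with vehicle, where AZA gave a signal at least 3.92-fold higher. XLOC_l2_015213 was at 159, 234, 62.3 and 203, 3.25-fold higher in MDS-L/CDA, while another detected probe of that name was at 94.4, 73.2, 112 and 80.8, a ratio of 0.724 there. lnc-AF165138.7.1-3 was at 84.7, 118, 30.9 and 103, at least 3.35-fold higher in MDS-L/CDA. For the 2 probes that were higher, MDS-L/CDA vehicle was the lowest of the 4 arrays and the AZA value was near the MDS-L values. lnc-UBE2Z-1 was at 35.0, 49.6 and 34.2 on the first 3 arrays and 3.13-fold higher than vehicle in MDS-L/CDA with AZA, and XLOC_l2_013931 was at 129, 77.7, 71.0 and 200, 2.82-fold higher. LINC01233 was the only leading member detected solely in MDS-L/CDA with AZA, at 71.0 against 8.47 with vehicle, at least 2.61-fold. A second LINC01233 probe overlaps it and was below background on all arrays, at 8.29 in MDS-L/CDA with AZA.

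On the decreasing side, lnc-DLGAP2-3 was at 249 in MDS-L/CDA with vehicle and at 6.28 with AZA, at least 8.42-fold lower, and at 4.78 and 4.71 in MDS-L. Its one bright value rests on 1 spot, as for the members seen on a single MDS-L array. XLOC_l2_004940 was among the bright members, at 31300, 31200, 29400 and 9370, a ratio of 0.319 in MDS-L/CDA. lnc-UQCRFS1-9 was at 1300, 1530, 1730 and 533, a ratio of 0.308, but a second detected probe of like brightness was at 1310, 1200, 1630 and 1340, a ratio of 0.823. LINC00662, 21334 bases from the lnc-UQCRFS1-9 probe on chromosome 19, was at 378, 370, 168 and 54.4, a ratio of 0.323. Of the 4 other LINC00662 probes, 3 gave 0.781, 0.74 and 0.721 in MDS-L/CDA and the last was below background there. Among probes named LINC00662 the decrease was thus seen in 1. The 2 names overlap, however. The lnc-UQCRFS1-9 probe with the ratio of 0.308 spans chr19:28237201-28262583 on the minus strand. The LINC00662 probe with the ratio of 0.74 spans chr19:28237209-28283927 on the same strand. lnc-NDUFV3-1 was at 85.0, 102, 81.6 and 30.1, the last below background, a ratio of at most 0.369.

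Few members passed in both lines. The AZA comparisons of the 2 lines use separate arrays, whereas each comparison of the lines shares an array with each of them. Higher in both were 10 members, which is 7.19% of the MDS-L increases and 32.3% of the MDS-L/CDA increases, beside 15.3% and 43.8% for the remaining probes. Lower in both were 9, or 11.2% and 23.1%, beside 12.3% and 26.5%. Of the 139 increases in MDS-L, 50 were below background on both MDS-L/CDA arrays. The other 89 had a median ratio of 1.34 in MDS-L/CDA, with 63 above 1 and 26 below, and none was 2-fold lower. Of the 80 decreases, 68 could be followed in MDS-L/CDA, with a median ratio of 0.819, 51 below 1 and 17 above.

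Among members higher in both lines, lnc-CRISPLD1-1 was at 29.7 and 110 in MDS-L, 3.71-fold, and 29.6 and 109 in MDS-L/CDA, at least 3.70-fold. The values of the 2 lines were nearly the same. lnc-CEP44-1 was at 77.9, 236, 60.2 and 190, or 3.03-fold and 3.15-fold. lnc-SYN3-1 was at 115, 396, 40.9 and 105, or 3.45-fold and 2.58-fold, with MDS-L above MDS-L/CDA in each treatment. lnc-AC069257.9.1-5 was at 54.5, 118, 31.0 and 71.5, or 2.16-fold and at least 2.30-fold. lnc-RASL10A-1, given above, was the remaining one of the leading 5.

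**Figure D5:**
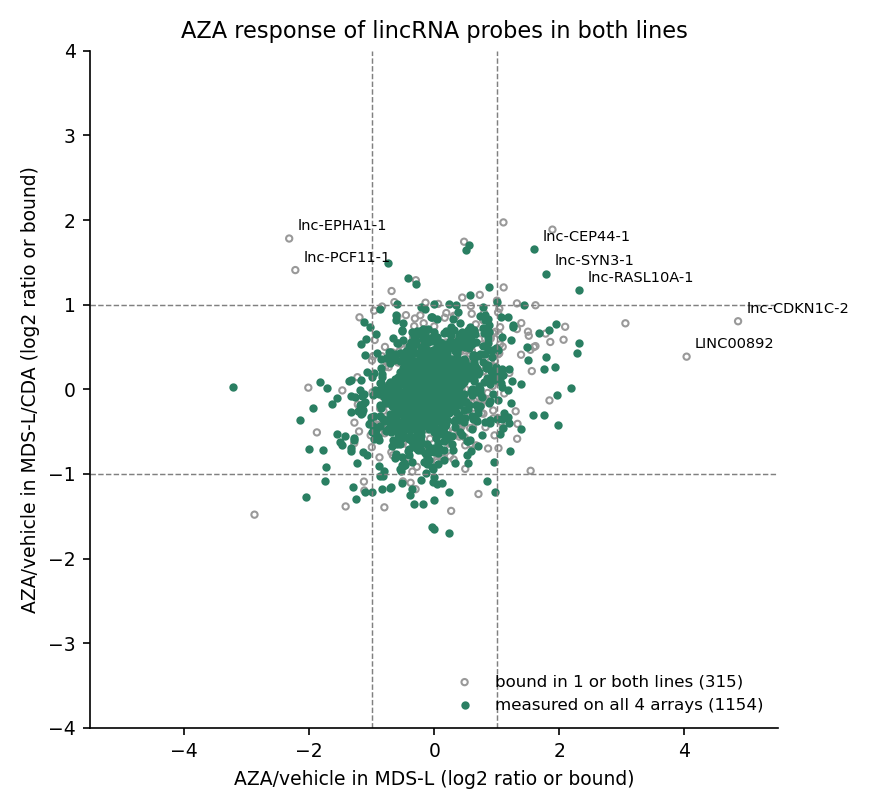
Log2 ratio of AZA over vehicle in MDS-L (horizontal axis) and in MDS-L/CDA (vertical axis) for the 1469 members with a ratio or bound in both lines, of which 1154 were detected on all 4 arrays and 315 have a bound in 1 or both lines. Each point is 1 probe, open where bounded, and dashed lines mark 2-fold. The 2 members past 2-fold in opposite directions, lnc-EPHA1-1 and lnc-PCF11-1, stand in the upper left field, and 10 stand in the upper right.

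Opposite directions were seen in 2 members. lnc-EPHA1-1 (chr7:143076787-143076846, minus strand) was at 340 and 68.1 in MDS-L, 4.99-fold lower with AZA, and at 30.7 and 106 in MDS-L/CDA, at least 3.44-fold higher. With vehicle the lines stood far apart and with AZA they were within 2-fold of each other. lnc-PCF11-1 was at 93.4 and 20.0 in MDS-L, at least 4.67-fold lower, and at 17.0 and 72.3 in MDS-L/CDA, at least 2.65-fold higher. Its probe spans an exon junction, with its ends at chr11:82784451-82802315 and 17805 bases of genome between the aligned parts. A RAB30-AS1 probe on the same strand overlaps that span, at 1120, 783, 1260 and 1290, and did not show the pattern. The arrays cannot tell whether 1 transcript or several gave these signals, and each member is 1 spot per array.

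Comparing the lines in vehicle, 53 members (0.389%) were higher in MDS-L/CDA and 26 (0.191%) lower, against 0.744% and 0.969% of all analysed probes and 0.486% and 0.461% of those of like signal. Increases were 67.1% of these, but between 3.23% and 62.5% under the other scalings. By the ratio with the Z score, 29 (0.213%) were higher and 40 (0.293%) lower, against 0.454% and 1.01% of all analysed probes. Remaining probes of like signal gave 0.244% and 0.569% by that rule. Only 5 of the 53 increases passed under all 5 other scalings, whereas 25 of the 26 decreases did. With AZA, 92 members (0.675%) were higher in MDS-L/CDA and 76 (0.557%) lower, against 2.09% and 1.90% of all analysed probes and 0.917% and 1.24% at like signal. Of these, increases were 54.8%, or between 6.82% and 60.6% under the other scalings, and 18 of 92 increases and 70 of 76 decreases passed under all of them. By the ratio with the Z score, 20 (0.147%) were higher and 68 (0.499%) lower, against 0.791% and 1.31% of all analysed probes.

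The largest ratio or bound between the lines, with vehicle and with AZA, belonged to LINC01420, which was at 736 and 1570 in MDS-L and at 24.4 and 38.6 in MDS-L/CDA. Its probe at chrX:56843930-56843989 was at least 27.0-fold lower in MDS-L/CDA with vehicle and 40.7-fold lower with AZA. A second LINC01420 probe, which spans a junction from chrX:56758631 to 56843810, was at 133, 240, 5.78 and 5.88, at least 4.87-fold and 8.11-fold lower. Both probes placed MDS-L far above MDS-L/CDA in each treatment, and AZA over vehicle in MDS-L was 2.14 and 1.81. RefSeq now calls this gene NBDY and lists it as protein coding. It encodes a small protein of cytoplasmic RNA granules, so the noncoding name no longer applies.

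Several further differences in vehicle came with a difference between the treatments of MDS-L. lnc-EPHA1-1 was at least 11.1-fold lower in MDS-L/CDA and lnc-ANGPTL2-3 at least 8.93-fold lower, and these use the same MDS-L vehicle array as their decrease with AZA. LINC00526, on chromosome 18, was at 127, 43.2, 14.5 and 6.40, at least 4.67-fold lower in MDS-L/CDA with vehicle and 2.95-fold lower with AZA than with vehicle in MDS-L. LINC00667, 8867 bases from it, was at 77.9, 87.9, 27.4 and 24.5, a ratio of at most 0.352 between the vehicle arrays. The brightest LINC00667 probe was detected on all arrays at 156, 142, 151 and 145, a ratio of 0.964, so the difference belongs to 1 probe of that locus. lnc-BID-2 was at 1380, 512, 299 and 205, 4.62-fold lower in MDS-L/CDA.

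Higher in MDS-L/CDA was lnc-LPPR5.1-1 (chr1:97885563-97885622, minus strand), at 30.2 and 26.9 in MDS-L and 284 and 238 in MDS-L/CDA. The difference was 9.42-fold with vehicle and 8.84-fold with AZA, so both pairs of arrays placed MDS-L/CDA well above MDS-L. lnc-DLGAP2-3 was at least 13.1-fold higher with vehicle but was detected on that array alone. lnc-GATA5-2 was at 20.7, 30.9, 66.9 and 42.7, at least 3.24-fold higher with vehicle. lnc-PPRC1-1 and LINC00421 followed at no less than 3.11-fold and 3.09-fold. With AZA, lnc-AF131215.3.1-1 was 8.72-fold higher in MDS-L/CDA, where AZA had left its signal near the vehicle value. lnc-AC073348.1-2, at 202, 52.7, 270 and 232, and XLOC_l2_015418, at 145, 55.9, 219 and 235, were 4.40-fold and 4.20-fold higher, and for both the MDS-L AZA array was the low one. lnc-RP11-410N8.4.1-2 was at 525, 274, 741 and 1160, 4.23-fold higher. The decreases were led, after LINC01420, by members that were higher with AZA in MDS-L: lnc-LRRC17-1 at least 35.6-fold, XLOC_l2_015849 at least 19.1-fold, lnc-CDKN1C-2 11.6-fold and LINC00892 8.76-fold.

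A list of 32 better known LINC genes was followed by the brightest probe of each name. On any array 19 were detected, 2 were at least 2-fold higher with AZA in MDS-L, 3 were lower, and in MDS-L/CDA none of these brightest probes passed either way. Over all analysed probes, the shares higher and lower were 2.50% and 2.35% in MDS-L, and 0.846% and 1.09% in MDS-L/CDA. The median log2 ratio of the listed probes was -0.14 in MDS-L and -0.20 in MDS-L/CDA. LINC00152, also called CYTOR, was at 4770, 3500, 4040 and 4590, and LINC00657, also called NORAD, which binds Pumilio proteins, was at 514, 419, 350 and 283. LINC00998 was at 1820, 1640, 3030 and 3100, and RefSeq lists it as the protein-coding SMIM30. LINC01089 was at 3120, 3320, 3840 and 3730. LINC-PINT, a target of p53, was at 229, 228, 244 and 151. These probes were detected on every array and stayed within 2-fold of their vehicle value in both lines. A dimmer LINC-PINT probe was at 134, 133, 139 and 65.0, 2.13-fold lower with AZA in MDS-L/CDA.

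By the brightest probe of each name, the 5 of that list past 2-fold in MDS-L were all dim or moderate. A dimmer LINC00662 probe was also 2.12-fold higher with AZA in MDS-L. LINC00938 was at 36.5, 106, 57.6 and 9.47, 2.91-fold higher with AZA in MDS-L. LINC01272 was at 4.67 and 64.4 in MDS-L, at least 3.39-fold higher, and below background in MDS-L/CDA. LINC00173, a transcript linked to granulocyte differentiation, was at 312, 132, 337 and 184, 2.36-fold lower in MDS-L and 1.83-fold lower in MDS-L/CDA. Its 2 other probes were 1.08-fold and 1.64-fold lower in MDS-L and 1.07-fold and 2.24-fold lower in MDS-L/CDA. LINC00673 was at 67.2, 33.1, 35.0 and 58.1, 2.03-fold lower in MDS-L. LINC01268 was at 49.8 and 15.4 in MDS-L, at least 2.62-fold lower.

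Long noncoding RNAs with names of their own, which are no members, were set beside these. Of 32 listed, 31 were on the array and 25 were detected. With AZA, 5 were higher and 2 lower in MDS-L, and none passed 2-fold in MDS-L/CDA. The shares over all analysed probes were 2.50% and 2.35% in MDS-L, and 0.846% and 1.09% in MDS-L/CDA. H19, an imprinted maternal transcript, was at 74.7, 1830, 74.9 and 88.7, 24.6-fold higher in MDS-L and at a ratio of 1.18 in MDS-L/CDA. UCA1 was at 28.7, 325, 8.91 and 47.6, 11.3-fold higher in MDS-L. KCNQ1OT1, the paternal antisense transcript of the same imprinted region as H19, was at 392, 792, 413 and 579, or 2.02-fold and 1.40-fold. MIR155HG, the host of miR-155, had a ratio of 0.265 in MDS-L.

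The member lnc-CDKN1C-2 lies in that imprinted region of chromosome 11. The gene in its name, CDKN1C, an inhibitor of the cell cycle, was at 4290, 25700, 6320 and 11100, which is 6.0-fold higher with AZA in MDS-L and 1.76-fold in MDS-L/CDA. The nearest measured neighbour of the lnc-CDKN1C-2 probe was a probe of KCNQ1, a potassium channel gene. The distance of 8653 bases is between the probes and does not place the member outside the KCNQ1 gene. KCNQ1 was at 1000, 449, 650 and 459, lower with AZA in both lines. In MDS-L, CDKN1C and KCNQ1 thus differed in opposite directions with AZA.

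Across members, the nearest probe with another name within 10 kb was compared with the member. Of the 139 increases in MDS-L, 72 had such a neighbour and 42 neighbours were measured. Of these 42, 28 were above a ratio of 1 and 14 below, 12 were at least 2-fold higher and 5 lower, with a median log2 ratio of 0.31. For members lower with AZA, 29 neighbours were measured, 24 below 1 and 5 above, 7 were at least 2-fold lower and the median was -0.51. For the 1775 measured members that did not pass in either direction, 653 neighbours were measured, 34 were at least 2-fold higher and 31 lower, and the median was -0.08. Neighbours of increases thus stood above, and neighbours of decreases below, those of the other members, as a description of these arrays. Neighbouring probes can lie on the same transcript, and their share was not tested.

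The gene carried in a lnc- name was compared in the same way. For the 93 lnc- increases in MDS-L, 61 such genes were measured, of which 30 were above a ratio of 1 and 31 below. Of the 61, 11 were at least 2-fold higher and 2 lower. For lnc- members that did not pass, 876 such genes were measured, 296 above 1 and 580 below. Of the 876, 53 were at least 2-fold higher and 52 lower. For the 56 decreases, 37 were measured, with 8 above and 29 below, and a median log2 ratio of -0.43 against -0.20 for lnc- members that did not pass. RASL10A is a small GTPase gene whose probe lies 3806 bases from that of lnc-RASL10A-1 on the same strand. It was at 115, 509, 126 and 223, which is 4.42-fold and 1.77-fold. SYN3 is a synapsin gene whose probe lies 4622 bases from that of lnc-SYN3-1. It was at 43.1, 195, 15.2 and 50.8, 4.54-fold in MDS-L and at least 1.86-fold in MDS-L/CDA. In these 2 examples the member and its neighbour were both higher with AZA in both lines.

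Some members that passed lay close together. On chromosome 8, LINC01300, lnc-GPR20-1 and lnc-PTP4A3-1 were all higher with AZA in MDS-L, with 8784 bases from LINC01300 to lnc-GPR20-1 and 33394 from LINC01300 to lnc-PTP4A3-1. lnc-GPR20-1 was at 5.09, 74.6, 6.9 and 7.02, and lnc-PTP4A3-1, detected on every array, was at 91.7, 456, 71.0 and 103. On chromosome 13, XLOC_l2_003897 and LINC00539, 27219 bases apart, were both lower with AZA in MDS-L, at 1360 and 613 and at 479 and 154. By chromosome, increases in MDS-L made up 2.42% of members on chromosome 21 (6 of 248), 1.95% on X (6 of 307) and 1.83% on 8 (11 of 601), and 0 of 495 on chromosome 13, beside 1.02% over all members. The remaining probes were higher at 3.01%, 3.27%, 2.47% and 2.07% on chromosomes 21, X, 8 and 13. The member counts are small and were not compared by a test.

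Probes of the same name gave a measure of how far a single probe can be trusted. In MDS-L, 231 pairs of probes from 110 names were both measured, and their log2 ratios for AZA differed by a median of 0.36 and a 90th percentile of 1.09. Ratios had the same sign in 151 of the 231 pairs. Of 38 pairs in which 1 probe was at least 2-fold apart and both were detected, the other had the same sign in 29 but was past 2-fold in 0. In MDS-L/CDA the same sign was seen in 98 of 183 pairs, and the other probe followed in sign in 12 of 16 and in size in 0. All these pairs hold only probes detected on both arrays of the line. With bounds counted, 4 names had several probes at least 2-fold higher with AZA in MDS-L, and 1 name had several lower. Different probes of a name can lie in different exons or transcripts, so a locus is not called from 1 probe here. Gene probes with at least 5 spots, all well above background, had a median SD over their spots of 0.12, 0.14, 0.15 and 0.20 log2 on the 4 arrays. The 90th percentiles were 0.25, 0.31, 0.35 and 0.43, where 2-fold is 1 on that scale. No member had several spots, so the error of dim single spots is not covered. Nor does this spread cover hybridisation or culture.

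Promoter sequence was available for part of the LINC members through RefSeq, as 250 bases before to 50 after the start in GRCh38.p14. Of 843 LINC names, 839 matched a RefSeq gene, 801 of them noncoding, 32 protein coding and 6 pseudogenes. Of the XLOC_ names 1 matched, XLOC_l2_005020 to the pseudogene GOLGA6L5P, and of the lnc- names 9. The promoters of 2 members brighter with AZA in MDS-L are printed because they differ in CpG content, again with CpG in capitals. That of LINC00892 is chrX:136639293-136639592 on the plus strand and has 1 CpG, and that of LINC01082 is chr16:86195931-86196230 on the plus strand and has 10.
LINC00892: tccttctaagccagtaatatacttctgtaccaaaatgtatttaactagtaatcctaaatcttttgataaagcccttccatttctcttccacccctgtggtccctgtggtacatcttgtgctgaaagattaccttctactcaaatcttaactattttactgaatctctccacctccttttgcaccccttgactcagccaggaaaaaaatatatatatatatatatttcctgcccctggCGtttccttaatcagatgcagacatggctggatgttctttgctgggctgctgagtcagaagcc
LINC01082: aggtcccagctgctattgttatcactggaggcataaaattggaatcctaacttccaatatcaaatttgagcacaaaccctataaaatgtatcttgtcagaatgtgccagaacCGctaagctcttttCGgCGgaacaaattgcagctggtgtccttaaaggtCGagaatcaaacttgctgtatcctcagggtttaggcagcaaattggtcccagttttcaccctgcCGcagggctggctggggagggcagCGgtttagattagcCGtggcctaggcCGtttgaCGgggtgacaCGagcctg

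The observed number of CpG was 0.0885 of that anticipated from base composition in the LINC00892 window and 0.55 in the LINC01082 window. A ratio of at least 0.6 was found in 10 of 25 promoters of members higher with AZA in MDS-L (40%) and in 7 of 10 of those lower (70.0%). It was found in 52 of 128 (40.6%) of the other measured members, in 131 of 546 (24.0%) of undetected members and in 13368 of 27305 of all RefSeq promoters (49.0%). The share for increases was close to that for other measured members. The letters AGATAA, searched on both strands, occurred in 4 of the 25 (16.0%) and in 12 of 128 (9.38%) of the other measured members. They occurred in 14.7% of the promoters of all members, in 15.6% of those of undetected members and in 10.5% of all promoters of that length. In the probes themselves, 51.8% of those higher with AZA in MDS-L held a CpG, beside 54.4% of the other measured members. The share was 46.0% over all members and 51.9% over remaining probes.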

How the data were processed

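RNA of each condition was measured on 1 one-colour Agilent array. The intensity values the authors deposited are linear scanner signals, background-subtracted within each array by Feature Extraction 10.7.1.1, with hg19 coordinates. They also deposited a value table of 51680 probes, whose sorted columns differ by at most 0.039 log2 and which correlates with the scanner intensity at 0.9992 or higher. Its normalization is not given in the sources used here.

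Control spots and outlier-flagged spots were left out, which dropped 16 of 58201 probes, none a member. Log2 signals were averaged per probe and the array's 75th percentile was set to 100. Only well-above-background flags defined detection. No test was run, since 1 array per condition gives no replicate spread, and the 2-fold rule with its bounds served for description. The study's rule of a ratio and a Z score of at least 2 was 1 of 18 alternatives. The arrays' number limits the precision. Scripts were checked on simulated data.

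Members and gene lists were chosen with earlier results of these data known. Members named in the text are the 10 largest increases and 6 largest decreases for AZA in each line, the 5 largest either way between lines, the leading 5 in both lines, those in opposite directions, the 5 brightest and the fixed lists. Closely placed members and names with several probes past 2-fold were chosen after their values were seen. Python 3.11.15, numpy 2.4.6, pandas 2.3.3, matplotlib 3.10.9, R 4.3.3 and limma 3.58.1 were used.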

Additional observations from a re-analysis of the deposited data

Results flagged for a closer look

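In 2 members the AZA and vehicle arrays differed in opposite directions in the lines. For lnc-EPHA1-1 the ratio of AZA over vehicle was 0.2 in MDS-L and at least 3.44 in MDS-L/CDA. For lnc-PCF11-1 it was at most 0.214 in MDS-L and at least 2.65 in MDS-L/CDA. Both members kept these directions past 2-fold under all 5 other scalings. Whether the lines differ here was not tested, since each condition had 1 array, and both members have 1 spot per array.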

How the results depend on the processing

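Counts are given as members higher and lower, in the order AZA in MDS-L, the same in MDS-L/CDA, the lines in vehicle and the lines with AZA, and those not given were within 1.5 times of the report's. No named member at least 2-fold apart changed sign in the 18 alternatives. Those that change only the fold, the Z score rule or the choice of members leave each ratio as it was. They could not have changed a sign. The balance of increases and decreases did change. Among the scalings, for AZA in MDS-L, decreases outnumbered increases under both quantile normalisations and with equal medians, and between lines in vehicle they did so without scaling and with equal medians. The other 91 summary values were alike, and of the values of named members 1153 moved little and 220 moved. Quantile normalisation of 4 arrays gave 123 lower for AZA in MDS-L and 35 higher between lines in vehicle, and of array pairs 133 lower for AZA in MDS-L. Without scaling there were 18 higher for AZA in MDS-L/CDA, 9 higher and 91 lower between lines in vehicle, and 18 and 246 with AZA. With equal medians there were 49 and 367 for AZA in MDS-L, a median log2 ratio of -0.51, and 5 and 150 between lines in vehicle. With the 75th percentile of detected probes there were 216 and 52 for AZA in MDS-L and 42 and 124 between lines with AZA. Normexp with an offset of 50 compresses dim signals and gave 22 and 19, 0 and 12, 2 and 6, and 4 and 26. The authors' value table, with 7176 members, gave 72 higher for AZA in MDS-L, 15 and 20 in MDS-L/CDA, and 22 and 17 between lines in vehicle.

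Requiring detection on both arrays gave 63 higher for AZA in MDS-L, 16 higher in MDS-L/CDA, 28 and 9 between lines in vehicle and 57 and 41 with AZA. Dim signals taken as measured, with no bound, gave 300 and 150, 88 and 97, 80 and 100, and 255 lower between lines with AZA. The ratio with a Z score of at least 2 gave 91 and 31 for AZA in MDS-L, 29 and 40 between lines in vehicle and 20 higher with AZA. A fold of 1.5 gave 370 and 264, 163 and 153, 233 and 106, and 306 and 196, and a fold of 3 gave 46 and 21, 7 and 4, 5 and 11, and 15 and 27. LINC members alone gave 38 and 12, 7 and 7, 9 and 7, and 8 and 26. XLOC_ members alone gave 8 and 12, 5 and 5, 4 and 5, and 18 and 9. lnc- members alone gave 19 higher for AZA in MDS-L/CDA, 14 lower between lines in vehicle and 41 lower with AZA. Other causes of these moves were not tested.

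No paired analysis was possible because each condition has 1 array and so no replicate numbers are shared. An additive fit over line and treatment was not run. Signal over background limits all counts, since 84.9% of members were detected on no array. Dim members have ratios known only as bounds, and the MDS-L/CDA arrays had the higher detection limit. Cell culture, RNA preparation and array differ together with every condition and cannot be told apart from it.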
